A study of Mus musculus with 9 samples.

Results

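The genes described here are 10 members of the mTORC1 and folliculin branch of growth signalling: the kinase complex genes Mtor, Rptor and Mlst8, its activator Rheb, the inhibitors Tsc1 and Tsc2, and the lysosomal folliculin branch Flcn, Fnip1, Fnip2 and Rragc. They were chosen by symbol for their place in the pathway, all 10 were found among the 14831 genes of the deposited table, and all 10 were among the 14430 tested. The 9 strand-specific RNA-seq libraries are from spinal cord of female C57Bl/6 mice, wild-type and 10 weeks of age per the labels, taken 2 weeks after 10 µl was injected in the right lateral ventricle. For 3 libraries the injection held 500 µg of ASO #571883 against mouse C9orf72, for 3 it held 500 µg of the control ASO #456835, and for 3 it held saline without ASO. An ASO, or antisense oligonucleotide, is a short modified nucleic acid strand that pairs with a chosen RNA and lowers its level. The design asks what a lower C9orf72 level does to the spinal cord transcriptome of mice that carry no disease mutation. No label states that a group's libraries are from separate mice, so that the p-values measure the spread between these libraries, which may be technical.

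mTORC1 is a protein kinase complex that drives protein, lipid and nucleotide synthesis and restrains autophagy when amino acids and growth factors are present. Growth factor signals reach it through the GTPase Rheb, which the TSC1 and TSC2 complex holds inactive, while amino acid signals act through Rag GTPases on the lysosome, where folliculin with FNIP1 or FNIP2 acts on RagC. The folliculin branch also decides whether the transcription factors TFEB and TFE3, which switch on lysosomal genes through CACGTG-containing sites, stay out of the nucleus. C9orf72 forms a complex with SMCR8 and WDR41. C9orf72 and SMCR8 belong to the same DENN protein family as folliculin and its FNIP partners, and the complex has been placed at the lysosome and linked to amino acid signalling to mTORC1. These are transcript levels, and phosphorylation of its substrates, by which mTORC1 activity is read, was not measured.

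The letters CACGTG, the core that TFEB and TFE3 recognise, were looked for in the promoters of the 10 genes, because the folliculin branch controls where these factors reside. The promoters, from 250 bases before to 50 bases after each gene's start, are RefSeq sequences on GRCm38.p6, and all 10 genes matched. CACGTG, which reads the same on both strands, was present in the promoters of Rheb, Fnip1 and Rragc, 3 of 10, against 7.15% of 32851 mouse promoters of the same length. It began at position -96 in Rheb (chr5:24842312-24842611, minus strand), -75 in Fnip1 (chr11:54437929-54438228, plus strand) and -112 in Rragc (chr4:123917183-123917482, plus strand), with the start at 0. These 3 promoters are shown 5′ to 3′ on the gene's strand, with the CACGTG in capitals.
Rheb: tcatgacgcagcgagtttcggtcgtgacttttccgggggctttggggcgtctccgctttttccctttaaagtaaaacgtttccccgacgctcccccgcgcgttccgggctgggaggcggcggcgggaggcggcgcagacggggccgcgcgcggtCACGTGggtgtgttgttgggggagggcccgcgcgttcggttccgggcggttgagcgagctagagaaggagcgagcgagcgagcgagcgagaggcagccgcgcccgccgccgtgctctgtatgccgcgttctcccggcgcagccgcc
Fnip1: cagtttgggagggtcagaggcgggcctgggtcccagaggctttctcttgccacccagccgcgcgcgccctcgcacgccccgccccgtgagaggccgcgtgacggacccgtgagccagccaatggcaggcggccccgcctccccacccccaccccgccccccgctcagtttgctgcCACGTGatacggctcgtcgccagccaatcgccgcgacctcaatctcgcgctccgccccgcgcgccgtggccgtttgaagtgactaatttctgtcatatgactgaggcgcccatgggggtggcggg
Rragc: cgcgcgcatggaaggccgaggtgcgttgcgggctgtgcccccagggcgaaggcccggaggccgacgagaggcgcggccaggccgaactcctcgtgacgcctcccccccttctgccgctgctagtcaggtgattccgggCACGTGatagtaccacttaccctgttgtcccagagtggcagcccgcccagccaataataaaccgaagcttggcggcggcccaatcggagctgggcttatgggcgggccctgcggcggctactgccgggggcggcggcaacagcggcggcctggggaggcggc
The longer form TCACGTGA, which contains CACGTG, was in none of the 10 promoters and in 0.974% of all promoters. A GC box, GGGCGG on either strand, was found for Mtor, Rheb, Fnip1, Fnip2 and Rragc, 5 of 10, against 35.7% of all promoters. The ETS core CCGGAAG, on either strand, was found for Mtor and Tsc2, 2 of 10, against 8.86%. TATAAA on either strand was in none of the 10 and in 13.6% of all promoters. The members' promoters held 41.7% (Rptor) to 78% (Fnip2) G and C, against a median of 52.7% over all promoters, and 13 to 47 CpG dinucleotides against a median of 7. CACGTG itself contains a CpG, and the 3 promoters that hold it have 47 (Rheb), 34 (Fnip1) and 32 (Rragc) CpG dinucleotides. The 32851 promoters were not matched to the members for CpG and not limited to the genes tested. Their shares are thus not a like background, and no excess of a motif is shown. A match to letters is a description and not a binding site.

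The values were taken as RPKM, which scales reads by library size and by transcript length, and those under 0.5 stood at 0.1. The depth of the libraries was estimated at 90.0 to 123.9 M reads from the step between low values, and no member was at 0.1 in any library. The targeted gene C9orf72 was at 2.68, 3.4 and 3.12 RPKM in the C9orf72 ASO libraries, against 11.2, 11.7 and 10.6 RPKM in the control ASO libraries and 10.5, 11.4 and 11.5 RPKM in the saline libraries. Its mean after the C9orf72 ASO was 27.5% of the mean of the other 6 libraries (exact permutation test over 84 splits, two-sided, p = 0.0238). Tissue markers were those of the labelled cord. Summed over 4 of 5 listed Hox genes of the cord, the level was 117 to 131 RPKM after the C9orf72 ASO, 130 to 159 RPKM after the control ASO and 125 to 127 RPKM after saline, while Neurod6, the 1 of 3 forebrain markers measured, was at 1.52 to 2.19 RPKM over all 9 libraries.

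In 4 comparisons, each tested with limma over 14430 genes with Benjamini-Hochberg adjustment, none of the 10 genes passed an adjusted p of 0.05. The C9orf72 ASO libraries were set against the control ASO libraries, against the saline libraries and against the mean of both control groups, and the control ASO libraries against the saline libraries. Of all genes tested, 0.0693%, 0.0693%, 0.173% and 0.00693% passed in these comparisons, which is 10, 10, 25 and 1 genes. Calls were rare among all genes, and 0 of 10 stands near that background. The smallest adjusted p of a member was 0.333 (Mlst8), 0.261 (Tsc2), 0.257 (Tsc2) and 0.794, in the same order. At an unadjusted p under 0.05, 1 of 10 members passed in each of the 3 comparisons of the C9orf72 ASO, against 14.1%, 14%, and 16.7% of all genes, and 0 of 10 between control ASO and saline, against 5.35%. Across the 10 members the 95% intervals of the difference ran from -20.6% to 20.1% against the control ASO and from -20.4% to 24.8% against saline. These intervals are per gene and not adjusted for the number of genes, and a p that misses the threshold does not show that the groups were equal. In bulk tissue, fewer cells that express a gene and less of its RNA per cell cannot be told apart.

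**Figure D1:**
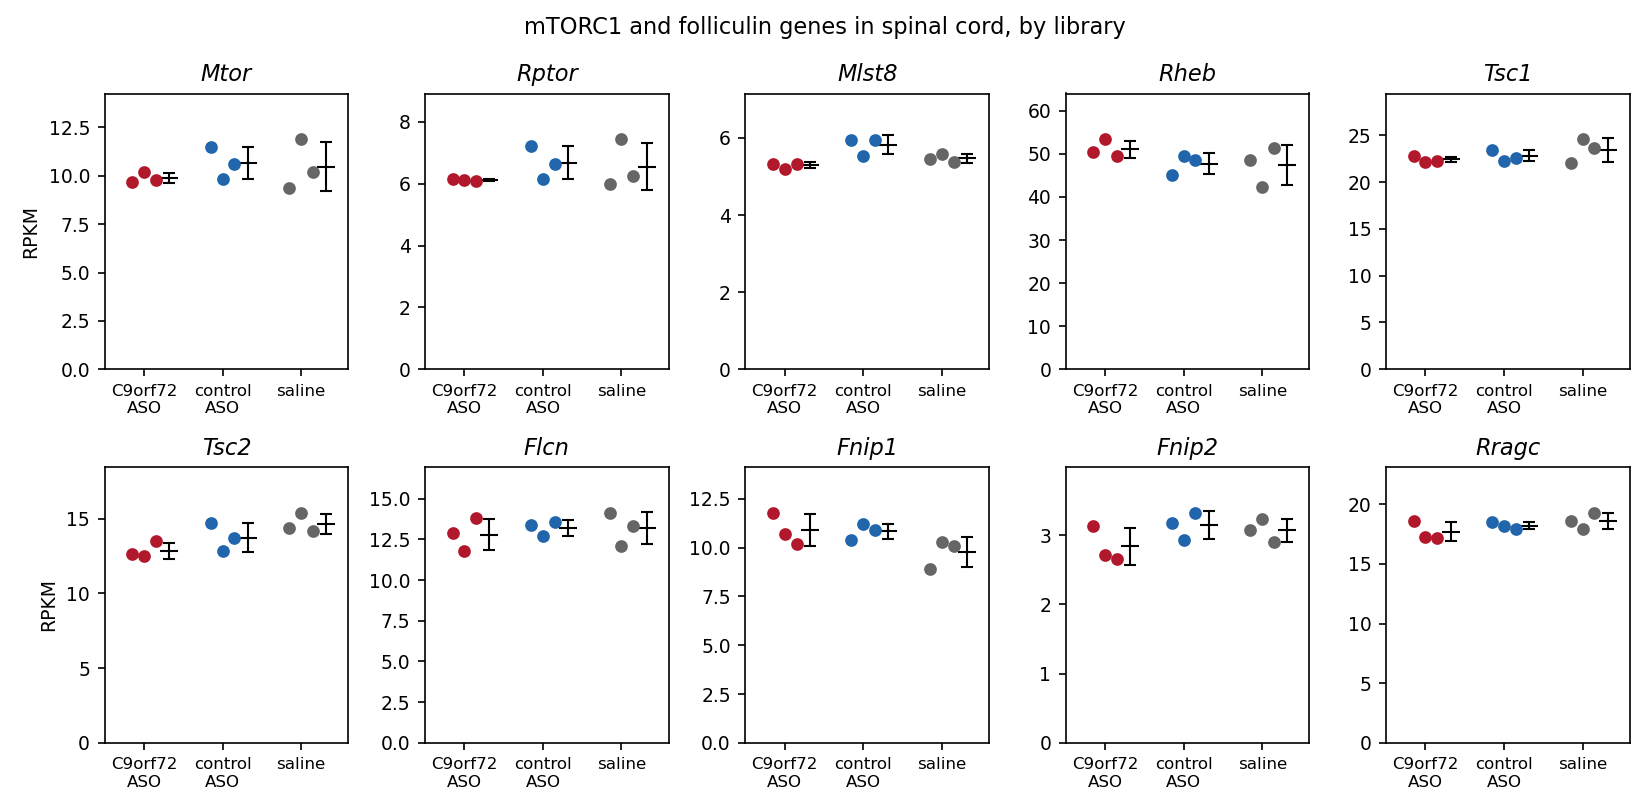
RPKM of each of the 10 genes in the 9 libraries, 1 panel a gene, with C9orf72 ASO, control ASO and saline libraries from left to right; points are libraries, bars the group mean and SD (n = 3 each). For most genes the groups overlap. The C9orf72 ASO libraries of Mlst8, at 5.2 to 5.33 RPKM, lie below the other 6, at 5.37 to 5.96 RPKM. The same order was found for 5.05% of all genes tested.

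Mtor encodes the kinase itself. Its level was 9.7, 10.2 and 9.77 RPKM in the C9orf72 ASO libraries, 11.5, 9.86 and 10.6 RPKM in the control ASO libraries and 9.39, 11.9 and 10.2 RPKM in the saline libraries. The groups overlapped, and both the highest and the lowest of the 9 values came from saline libraries. The log2 fold change against the control ASO was -0.10 (SE 0.09, adjusted p = 0.59) and against saline -0.08 (adjusted p = 0.732).

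Rptor encodes Raptor, the subunit that brings substrates to the kinase. It was at 6.16, 6.12 and 6.08 RPKM after the C9orf72 ASO, at 7.23, 6.16 and 6.64 RPKM after the control ASO and at 5.99, 7.43 and 6.24 RPKM after saline. The 3 C9orf72 ASO values lay close together (6.12 ± 0.0418 RPKM, SD, n = 3), inside the range of the saline libraries (6.56 ± 0.768) and at the low end of the control ASO libraries (6.67 ± 0.536), where replicates 2 and 3 lay below the lowest control ASO value. The log2 fold change was -0.12 against the control ASO (SE 0.09, adjusted p = 0.529) and -0.09 against saline (adjusted p = 0.673).

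Mlst8 encodes mLST8, a small subunit that binds the kinase domain. It was at 5.33, 5.2 and 5.33 RPKM in the C9orf72 ASO libraries, against 5.96, 5.53 and 5.96 RPKM in the control ASO libraries and 5.45, 5.59 and 5.37 RPKM in the saline libraries. All 3 C9orf72 ASO libraries lay below all 6 others, the lowest saline library being the nearest. The difference against the control ASO was -0.13 (log2, SE 0.06, 95% interval -0.26 to -0.01, adjusted p = 0.333). It was -0.05 against saline (adjusted p = 0.757) and -0.09 against both control groups (adjusted p = 0.385), so that it did not pass after adjustment. Of all genes, 11.8%, 12.4% and 5.05% had C9orf72 ASO libraries below all libraries they were set against in these 3 comparisons, so that a lack of overlap is not rare. On the other strand, Mlst8 shares 997 bases of exon with Bricd5 in the GENCODE annotation of GRCm38, and Bricd5 was at 0.1 RPKM in all libraries but saline replicate 2 (0.523 RPKM). The sources used here do not say whether the counting used strand.

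Rheb encodes the GTPase that switches mTORC1 on, and its transcript was the most abundant of the 10. It was at 50.5, 53.4 and 49.6 RPKM after the C9orf72 ASO, at 45, 49.6 and 48.6 RPKM after the control ASO and at 48.5, 42.4 and 51.4 RPKM after saline. The groups overlapped, with the lowest value in saline replicate 2. The log2 fold change was 0.10 against the control ASO (SE 0.08, adjusted p = 0.559) and 0.11 against saline (adjusted p = 0.53).

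Tsc1 encodes hamartin, which stabilises the complex that turns Rheb off. It was at 22.8, 22.2 and 22.3 RPKM after the C9orf72 ASO, at 23.4, 22.3 and 22.6 RPKM after the control ASO and at 22, 24.6 and 23.7 RPKM after saline. These groups overlapped, and the log2 fold changes were -0.02 against the control ASO (SE 0.06, adjusted p = 0.871) and -0.06 against saline (adjusted p = 0.67).

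Tsc2 encodes tuberin, the subunit that acts on Rheb. It was at 12.6, 12.5 and 13.5 RPKM in the C9orf72 ASO libraries, 14.7, 12.8 and 13.7 RPKM in the control ASO libraries and 14.4, 15.4 and 14.2 RPKM in the saline libraries. The C9orf72 ASO libraries lay below the saline libraries without overlap, as did those of 12.4% of all genes tested. The control ASO libraries reached into both ranges. The difference against saline was -0.19 (log2, SE 0.07, 95% interval -0.33 to -0.04, adjusted p = 0.261), and against the control ASO -0.09 (SE 0.07, adjusted p = 0.528). It was -0.14 against both control groups (SE 0.06, adjusted p = 0.257). The gene shares 693 bases of exon with Pkd1 on the opposite strand. Pkd1 was at 8.44, 7.85 and 8.56 RPKM after the C9orf72 ASO, 9.61, 8.57 and 10.2 RPKM after the control ASO and 11.2, 10.4 and 10.1 RPKM after saline, that is -0.19 against the control ASO and -0.35 against saline on the log2 scale. Both genes had their lowest group mean after the C9orf72 ASO, and the part of shared reads in this was not tested.

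Flcn encodes folliculin, the protein lost in Birt-Hogg-Dubé syndrome. It was at 12.9, 11.8 and 13.8 RPKM after the C9orf72 ASO, 13.4, 12.7 and 13.6 RPKM after the control ASO and 14.1, 12.1 and 13.3 RPKM after saline. The 3 ranges overlapped almost whole, with log2 fold changes of -0.05 against the control ASO (SE 0.07, 95% interval -0.21 to 0.11, adjusted p = 0.793) and -0.04 against saline (adjusted p = 0.832).

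Fnip1 and Fnip2 encode alternative partners of folliculin. Fnip1 was at 11.8, 10.7 and 10.2 RPKM after the C9orf72 ASO, at 10.4, 11.2 and 10.9 RPKM after the control ASO and at 8.89, 10.3 and 10.1 RPKM after saline. All 3 control ASO libraries were above all 3 saline libraries, as were those of 3.16% of all genes, and the C9orf72 ASO libraries overlapped both. Its difference was 0.01 against the control ASO (SE 0.07, adjusted p = 0.984), 0.16 against saline (adjusted p = 0.377) and 0.15 between control ASO and saline (adjusted p = 0.794). Fnip2 was the lowest of the 10, at 3.14, 2.72 and 2.66 RPKM after the C9orf72 ASO, 3.18, 2.93 and 3.32 RPKM after the control ASO and 3.08, 3.24 and 2.9 RPKM after saline. Its groups overlapped, with log2 fold changes of -0.15 against the control ASO (SE 0.09, adjusted p = 0.457) and -0.11 against saline (adjusted p = 0.589).

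Rragc encodes RagC, the GTPase on which folliculin acts. It was at 18.6, 17.3 and 17.2 RPKM after the C9orf72 ASO, 18.5, 18.2 and 17.9 RPKM after the control ASO and 18.6, 17.9 and 19.3 RPKM after saline. The groups overlapped, and the log2 fold changes were -0.04 against the control ASO (SE 0.05, adjusted p = 0.756) and -0.07 against saline (adjusted p = 0.599). Rragd, which encodes the closest relative RagD, was at 15, 16.1 and 16.4 RPKM after the C9orf72 ASO, below 16.7, 17.2 and 18.3 RPKM after the control ASO without overlap, and at 15.4, 17.4 and 15.4 RPKM after saline (log2 fold change against the control ASO -0.13, adjusted p = 0.382). Of all genes tested, 11.8% were likewise lower than in the control ASO libraries without overlap. Rraga, the RagA gene, was at 67.1, 90.4 and 83.6 RPKM after the C9orf72 ASO, 78, 97.9 and 111 RPKM after the control ASO and 90, 82.7 and 81.6 RPKM after saline, with a log2 fold change of -0.25 against the control ASO (adjusted p = 0.41). Rptor and Rragc each have an annotated antisense neighbour that shares 84 bases (Rptoros) and 264 bases (4930535I16Rik) of exon, not analysed here.

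**Figure D2:**
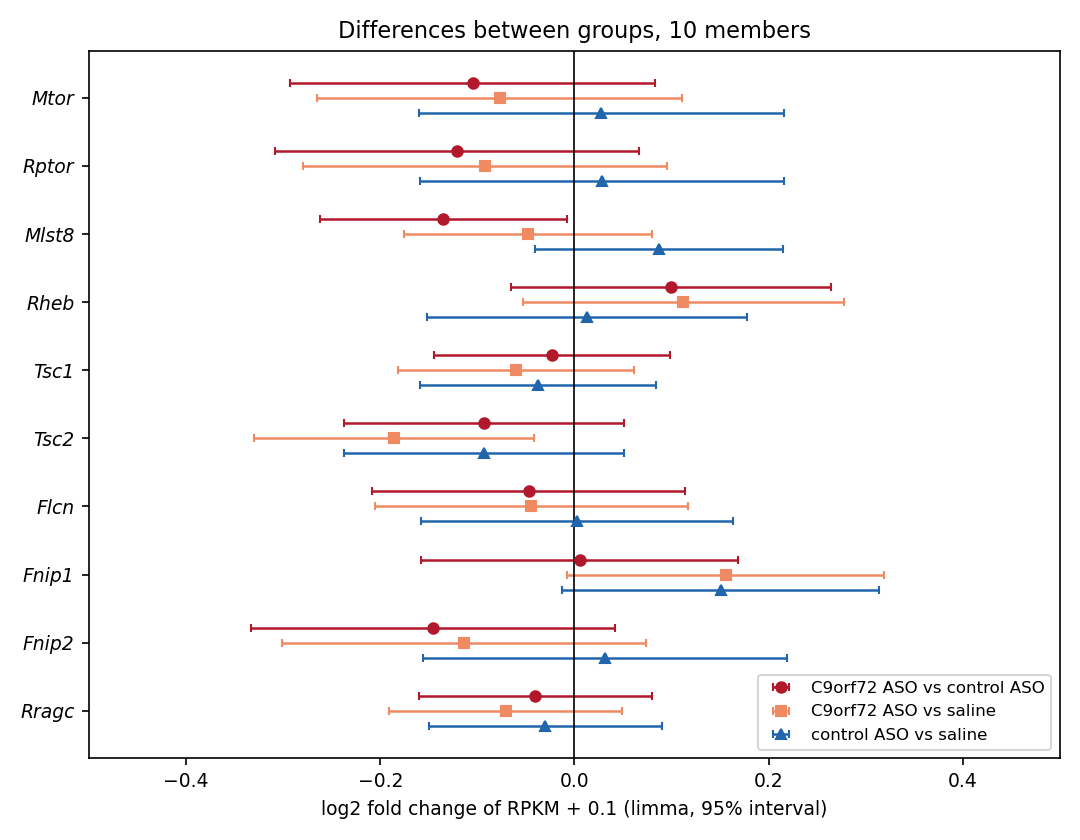
Log2 fold change of RPKM + 0.1 for each of the 10 genes, with 95% intervals from limma, for C9orf72 ASO against control ASO, C9orf72 ASO against saline, and control ASO against saline. Among those drawn, the intervals that exclude 0 are those of Mlst8 against the control ASO (-0.26 to -0.01) and of Tsc2 against saline (-0.33 to -0.04), and neither gene passed after adjustment.

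On the RPKM scale, which is per length, the members spanned from Rheb at 48.8 ± 3.30 RPKM (SD over 9 libraries) to Fnip2 at 3.02 ± 0.231 RPKM, around a median of 7.96 RPKM over all genes tested. Tsc1 (22.9 RPKM), Rragc (18.2), Tsc2 (13.7), Flcn (13.1), Fnip1 (10.5), Mtor (10.3), Rptor (6.45) and Mlst8 (5.53) followed Rheb in this order. Of the neighbouring pairs, 2 did not differ beyond their spread. Tsc2 exceeded Flcn in 7 of 9 libraries, and Fnip1 exceeded Mtor in 5 of 9. The other 7 neighbours had separate ranges over the 9 libraries. The members' coefficients of variation over the 9 libraries were 3.63% to 8.26%. Their residual SD within groups had a median of 0.0949 on the log2 scale, near the 0.102 over all genes tested. This SD ran from the 2.95 percentile of all genes tested (Mlst8) to the 62.3 percentile (Mtor).

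Ratios within a library compare partners free of library scaling. They are not free of a trend on exon length or GC content that differs between libraries. Fnip1 has 7119 bases of exon and 38.9% GC, and Fnip2 8364 bases and 49.2% GC. Fnip2 stood to Fnip1 at 0.260 ± 0.00644 after the C9orf72 ASO, 0.291 ± 0.0255 after the control ASO and 0.316 ± 0.0297 after saline (SD, n = 3 each). The C9orf72 ASO libraries, at 0.253 to 0.266, overlapped the control ASO libraries, at 0.261 to 0.306, and lay below the saline libraries, at 0.287 to 0.346. The share of other gene pairs whose ratios separate likewise was not computed. Tsc1 stood to Tsc2 at 1.75 ± 0.0811 after the C9orf72 ASO, 1.67 ± 0.0778 after the control ASO and 1.60 ± 0.0694 after saline, with overlapping libraries. Rptor, which defines mTORC1, stood to Rictor, which defines mTORC2, at 0.738 ± 0.0641 after the C9orf72 ASO, 0.759 ± 0.0861 after the control ASO and 0.753 ± 0.0194 after saline. No test was made on ratios.

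Against the control ASO, 8 of 10 members had a log2 fold change below 0, against 54.1% of all genes. Their median was -0.07, against -0.01 over all genes. With the trend of values on exon length and GC content removed from each library, 5 of 10 were below 0 with a median of 0.00. Against saline, 8 of 10 were below 0, against 58.7% of all genes, with a median of -0.07 (all genes -0.03), and 3 of 10 with a median of 0.03 once the trend was removed. Against both control groups, 8 of 10 were below 0, against 57.2% of all genes, and 4 of 10 with the trend removed. Between control ASO and saline, 3 of 10 were below 0, against 57.4%, with a median of 0.02, and 4 of 10 with the trend removed. The shares and medians over all genes are those before the trend was removed. They were not computed after its removal, so that the counts of members there have no background beside them. The 3 comparisons of the C9orf72 ASO share its libraries, and each control group serves in more than 1 comparison. The 8 genes below 0 were Mtor, Rptor, Mlst8, Tsc1, Tsc2, Flcn, Fnip2 and Rragc in all 3 comparisons of the C9orf72 ASO, and the remaining 2 were Rheb and Fnip1.

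The length trend itself differed between libraries. The median centred log2 value of the longest 20% of genes minus that of the shortest 20% was -0.04, -0.02 and -0.16 in the C9orf72 ASO libraries, 0.08, 0.07 and 0.09 in the control ASO libraries and -0.15, 0.18 and -0.06 in the saline libraries. All 3 control ASO libraries were thus above all 3 C9orf72 ASO libraries, while the highest value was that of saline replicate 2 and the lowest those of C9orf72 ASO replicate 3 and saline replicate 1. Most members have a large exon length, 7 of 10 at or above the 76.5 percentile. This length is that of all annotated exons of a gene merged, which can exceed the length of any 1 transcript. Exon length was 13471 bases for Rptor, 11833 for Tsc1, 10109 for Mtor and 9620 for Tsc2, and 3341 for Rragc, the shortest, against a median of 4432 bases over genes with a length.

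**Figure D3:**
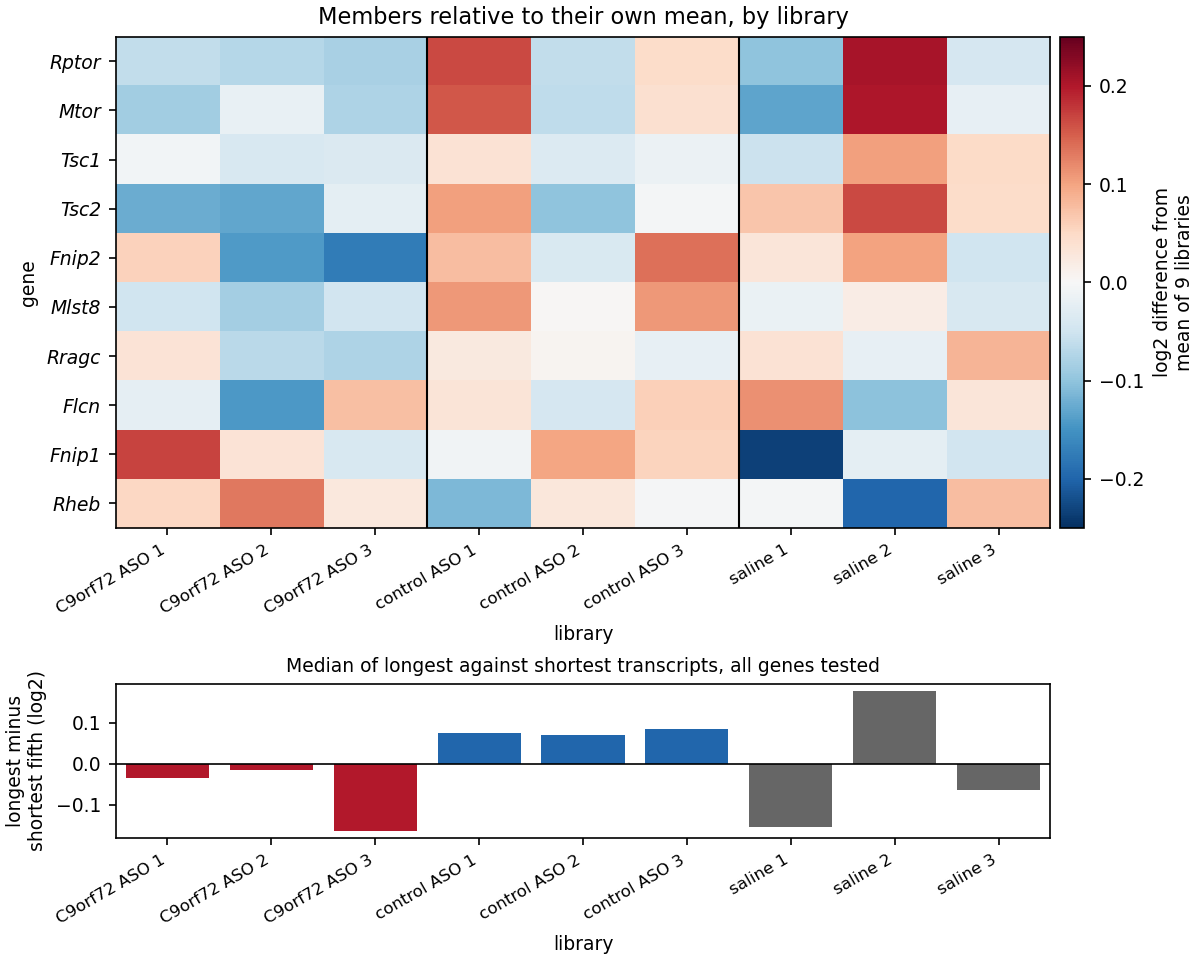
Log2(RPKM + 0.1) of each member in each library minus its mean over the 9 libraries, with C9orf72 ASO, control ASO and saline libraries in order. Mtor and Rptor run together, highest in saline replicate 2 (0.20 and 0.21) and lowest in saline replicate 1 (-0.13 and -0.10), while Rheb is lowest in saline replicate 2 (-0.20).

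Mtor and Rptor moved together over the 9 libraries. Their Pearson r was 0.975 (Spearman rho 0.833, 0.861 without the 2 libraries farthest from the median, 0.973 within groups), and it was 0.896 with the length and GC trend removed. Rheb had a negative r with Rptor (r = -0.870, rho = -0.417) and with Mtor (r = -0.769, rho = -0.367), at -0.560 and -0.614 with the trend removed. Both rest on 2 libraries, since r without the 2 farthest from the median was -0.209 with Rptor and 0.247 with Mtor. Rheb with Tsc2 was at -0.816 (rho = -0.833), at -0.507 without the 2 farthest and at -0.166 with the trend removed. Rheb with Mlst8 was at -0.617, at -0.816 without the 2 farthest and at -0.446 with the trend removed. In each pair, the 2 farthest were those of the gene that comes first in the opening list of members. Of the 45 pairs of members, 30 had a positive r, 5 were over 0.7 and 3 were under -0.7, and the median was 0.141, or 0.031 with the trend removed. Most other pairs over 0.7 lost most of their size with the trend removed. Mtor with Tsc1 was at 0.812 before and 0.005 after, and Rptor with Tsc1 at 0.810 before and 0.118 after. Rptor with Tsc2 was at 0.707 before and -0.055 after. Without the 2 farthest libraries these pairs were at 0.409, 0.386 and 0.078. Mlst8 with Fnip2 kept more, at 0.743 before, 0.347 after and 0.659 without the 2 farthest. The partners Tsc1 and Tsc2 were at 0.687 before and 0.334 after. Flcn with Fnip1 was at -0.500 before, at -0.850 without the 2 farthest and at 0.418 with the trend removed. The sign of that pair thus depended on the trend. Flcn with Fnip2 was at 0.134 before and 0.172 after. The 3 genes with a CACGTG in the promoter did not move as 1 group, since r was 0.198 for Rheb with Fnip1, -0.033 for Rheb with Rragc and -0.127 for Fnip1 with Rragc. These correlations describe 9 libraries that share their scaling and length trend, and no p is given for them.

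Among 13241 named genes tested, those most like each member by Pearson r over the 9 libraries were Pcnx2 (0.996) and Ogdh (0.983) for Mtor, Kif26b (0.989) and Sik3 (0.986) for Rptor, and Hp1bp3 (0.932) and Acvr1b (0.931) for Mlst8. For Rheb they were Cycs (0.977), which encodes cytochrome c, and Hprt (0.965). For Tsc1 they were Nup205 (0.940) and Cecr2 (0.918), and for Tsc2 Sugp2 (0.992) and Reep2 (0.976). For the folliculin branch they were Ddx27 (0.982) and Cd3eap (0.971) for Flcn, Epc2 (0.972) and Rnf170 (0.971) for Fnip1, Adamtsl1 (0.939) and Tnrc6c (0.928) for Fnip2, and Gls2 (0.928) and Rnd1 (0.910) for Rragc. The number of genes with r over 0.9 ranged from 4 for Fnip2 and Rragc to 116 for Mtor. The length and GC trend was not removed from the values used here. The highest r among 13241 genes over 9 libraries can be large without any link, so that these names are a description only.

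The rest of the pathway was covered by 10 lists with 178 further symbols, of which 175 were tested. Among these 175 genes, C9orf72 alone passed, as lower, against the control ASO and against saline. Against both control groups together, C9orf72 and Slc7a5 passed, both lower, and between control ASO and saline 0 passed. The median log2 fold changes of the 175 genes were -0.04 against the control ASO, -0.05 against saline, -0.05 against both and -0.02 between control ASO and saline, next to -0.01, -0.03, -0.02 and -0.02 over all genes tested.

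**Figure D4:**
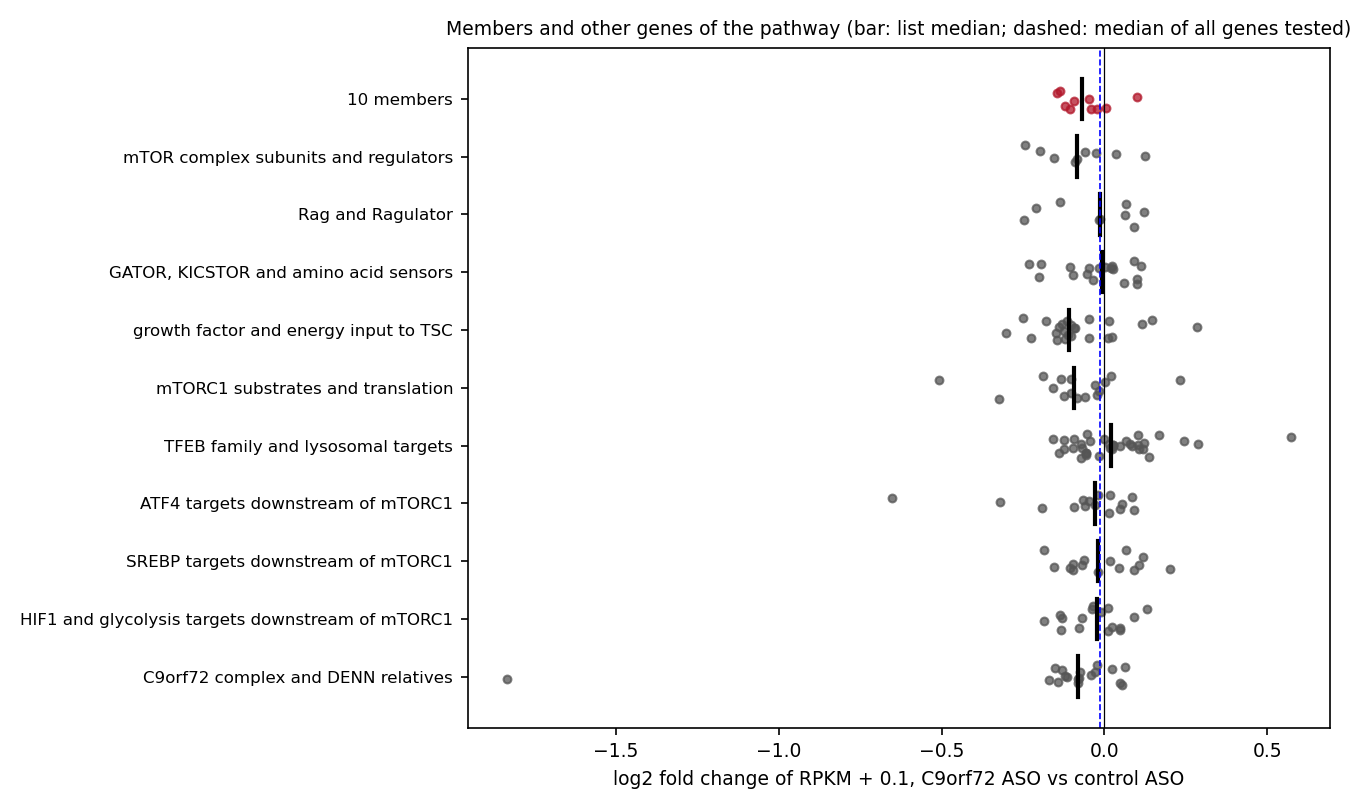
Log2 fold change of RPKM + 0.1, C9orf72 ASO against control ASO, for the 10 members and for the genes of 10 pathway lists; points are genes, bars list medians, and the dashed line is the median of all genes tested (-0.01). List medians lie between -0.11 and 0.02, and the point at -1.84 is C9orf72.

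The C9orf72 list held the target, its partners, other DENN proteins and Rab GTPases, and 1 of its 18 tested genes, C9orf72, passed against the control ASO (log2 fold change -1.84, SE 0.08, adjusted p = 1.83e-06). Its partner Smcr8 was at -0.15 (SE 0.10, adjusted p = 0.49) and Wdr41 at 0.05 (SE 0.05, adjusted p = 0.694). Among 9 other mTOR complex subunits and regulators 0 passed, with a median of -0.08. Mapkap1, an mTORC2 subunit, was at 0.12 (adjusted p = 0.353), Deptor, an inhibitor of mTOR, at -0.20 (adjusted p = 0.366) and Rictor at -0.08 (adjusted p = 0.657). Among 9 Rag and Ragulator genes, the scaffold that holds mTORC1 at the lysosome, 0 passed with a median of -0.01, and the lysosomal arginine sensor Slc38a9 was at -0.21 (adjusted p = 0.265). Among 18 genes of GATOR, KICSTOR and the amino acid sensors 0 passed with a median of -0.01. Castor2, a partner of the cytosolic arginine sensor Castor1, was at -0.19 (adjusted p = 0.267).

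Of 24 genes that carry growth factor and energy signals to TSC, 0 passed, and their median against the control ASO was -0.11. Igf1r, the receptor for insulin-like growth factor, was at 5.72, 5.8 and 5.41 RPKM after the C9orf72 ASO, 7.68, 6.8 and 6.5 RPKM after the control ASO and 6.86, 7.95 and 6.94 RPKM after saline. Its C9orf72 ASO libraries lay below all 6 others, as did those of 5.05% of all genes tested. Its log2 fold change was -0.30 against the control ASO (adjusted p = 0.236) and -0.35 against saline (adjusted p = 0.135). Rhebl1, a relative of Rheb, was at 0.28 (adjusted p = 0.265). Of 16 substrates of mTORC1 and translation genes 0 passed, with a median of -0.09. Eif4ebp2, the translation repressor that mTORC1 inactivates and the main brain form, was at 8.78, 8.01 and 8.21 RPKM after the C9orf72 ASO, 10.6, 10.3 and 10.5 RPKM after the control ASO and 9.24, 11.7 and 9.45 RPKM after saline. The C9orf72 ASO libraries lay below all 6 others, again as in 5.05% of all genes tested. The saline range enclosed that of the control ASO (log2 fold change -0.32 against the control ASO, adjusted p = 0.234). Rps6, the ribosomal protein whose phosphorylation reports mTORC1 activity, was at 0.23 (adjusted p = 0.273). The widest value of this list, -0.51 for Eif4ebp1 (adjusted p = 0.782, named after its value was seen), came from a gene that stood at 0.1 RPKM in 4 libraries.

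Downstream, 0 of 36 genes of the TFEB family and its lysosomal targets passed, with a median of 0.02. Tfeb was at -0.06 (adjusted p = 0.857) and Tfe3 at -0.07 (adjusted p = 0.611). Ctsd, which encodes the lysosomal protease cathepsin D, was at 104 to 115 RPKM after the C9orf72 ASO, 85.2 to 95.6 RPKM after the control ASO and 91.7 to 102 RPKM after saline (log2 fold change 0.25, adjusted p = 0.24 against the control ASO). Gpnmb, a TFE3 target in phagocytic cells, was at 1.12, 1.02 and 0.961 RPKM after the C9orf72 ASO, 0.558, 0.677 and 0.759 RPKM after the control ASO and 0.745, 0.785 and 0.613 RPKM after saline (0.57, adjusted p = 0.247). Both were higher in the C9orf72 ASO libraries than in all 6 others, as were 2.82% of all genes tested. The summed level of the 4 microglia markers that are in none of the pathway lists (Cx3cr1, P2ry12, Csf1r and Tmem119) was 47.3 to 53.7 RPKM after the C9orf72 ASO, 44.4 to 46.0 RPKM after the control ASO and 43.3 to 46.7 RPKM after saline, with no marker at 0.1 in all libraries. Of these markers only P2ry12, at 16.7 to 19.1 RPKM after the C9orf72 ASO, was above all 6 others, at 14.1 to 15.6 RPKM. Cx3cr1, Csf1r and Tmem119 overlapped between the groups. The part of microglia in the values of Ctsd and Gpnmb was not tested. Of 15 tested SREBP targets, the sterol and lipid synthesis genes, 0 passed with a median of -0.02. The sterol feedback gene Insig1 was at -0.19 (adjusted p = 0.277) and the sterol synthesis gene Sqle at 0.12 (adjusted p = 0.37). Of 16 HIF1 and glycolysis targets 0 passed with a median of -0.02. The glucose transporter gene Slc2a1 was at -0.19 (adjusted p = 0.382) and the hexokinase gene Hk1 at -0.14 (adjusted p = 0.392).

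Of 15 tested genes of the list of ATF4 and its targets, mainly amino acid supply genes that mTORC1 induces, 1 passed. It did so against both control groups together only, where 0.173% of all genes tested passed. Slc7a5 encodes LAT1, the transporter that carries leucine into cells and across the blood-brain barrier. It was at 12.4, 12.7 and 14.4 RPKM in the C9orf72 ASO libraries, 16.6, 16.4 and 16.2 RPKM in the control ASO libraries and 16.5, 17 and 16.9 RPKM in the saline libraries. All 3 C9orf72 ASO libraries lay below all 6 others, as did those of 5.05% of all genes tested. The 6 others themselves differed by little. Slc7a5 fell by 0.34 on the log2 scale against both control groups (SE 0.05, adjusted p = 0.0402), while it was at -0.32 against the control ASO alone (adjusted p = 0.115) and at -0.35 against saline alone (adjusted p = 0.0689). The call ended without the trend and robust options of limma (adjusted p = 0.0796) and on leaving out C9orf72 ASO replicate 1 (0.283) or 2 (0.155), control ASO replicate 1 (0.105), 2 (0.0703) or 3 (0.0825), or saline replicate 2 (0.07) or 3 (0.0758). Over all alternatives its adjusted p ran from 0.0131 to 0.283, and its log2 fold change from -0.40 to -0.27. The other 14 genes of the list did not pass, and the list median was -0.03 against the control ASO. The summed level of 5 of 5 endothelial markers was 18.2 to 21.4 RPKM after the C9orf72 ASO, 18.8 to 28.1 RPKM after the control ASO and 28.0 to 36.1 RPKM after saline. For 4 of 4 markers of pericytes and smooth muscle it was 26.8 to 30.7 RPKM after the C9orf72 ASO, 30.2 to 42.6 RPKM after the control ASO and 43.5 to 57.4 RPKM after saline, and no marker of either list was at 0.1 in all libraries. Slc7a5 and Slc2a1 are both expressed at the blood-brain barrier, and the part of vessel cells in their values was not tested.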

How the data were processed

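The 9 libraries, 3 each for C9orf72 ASO, control ASO and saline, were read from 1 table of values deposited by the authors and taken as RPKM. Its header states no unit. For low values of genes of up to 350 bases, value times exon length times depth should be a whole number of reads. The depth taken for each library was the one that brought most of these within 0.1 of a whole read. That gave 90.0 to 123.9 M reads, with 63.5% to 74.1% within 0.1. As the depth was chosen to maximise this share, the share is no separate check of the unit or the depths. Per the submitters' processing notes, cutadapt 1.2.1 and GSNAP were used, on mm9. The counter, its annotation and whether it used strand are not stated in the sources used here. In the table, 5160 values (3.87%), those under 0.5 RPKM, stand at 0.1.

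The fit was made with limma 3.58.1 (R 4.3.3, statmod 1.5.0, trend and robust options) over all libraries on log2(RPKM + 0.1). The added 0.1 makes the changes of low genes smaller. Where a gene crosses 0.5 RPKM, the drop of its values to 0.1 can make them larger. The filter kept the 14430 genes that reached 0.5 RPKM in 3 or more libraries and dropped 401, and a gene was called at a Benjamini-Hochberg adjusted p under 0.05. The code of the fit was run on simulated data that held no trend on length or GC. Its outcome is not given here and bears on no member's result. Summaries and the exact permutation test used Python 3.11.15 with scipy 1.17.1. Of the 14831 Ensembl IDs, 14321 received a symbol. Exon lengths, of all annotated exons of a gene merged, and overlaps are from GENCODE on GRCm38, so that no positions on the authors' mm9 are given.

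The members, the 10 pathway lists and the tests were chosen with earlier results of these data known. The named genes were the members, C9orf72 and 7 relatives (Smcr8, Wdr41, Rictor, Rraga, Rragd, Tfeb and Tfe3), and in each list the genes past the threshold or else the 2 with the smallest p against the control ASO, of which 1 is not reported here. The 2 genes most like each member were added. Alternatives were other pseudocounts, filters, scalings and limma options, floor values raised, the trend on length and GC removed, only the groups compared, and each library left out in turn.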

Additional observations from a re-analysis of the deposited data

How the results depend on the processing

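No member passed the threshold in any comparison under the 19 alternatives. Of 750 member values, 715 kept their sign and 35 changed it, and the smallest adjusted p was 0.144 (Tsc2 against saline, without C9orf72 ASO replicate 3). With the length and GC trend removed, log2 fold changes against the control ASO were 0.0135 for Rptor, 0.0617 for Tsc1, 0.0033 for Tsc2, 0.119 for Tfeb and 0.0018 for Tfe3, while Mtor kept its sign at -0.0099. Against saline they were 0.0175 for Mtor, 0.0433 for Rptor, 0.0385 for Mlst8, 0.0034 for Tsc1 and 0.0431 for Flcn. Against both control groups they were 0.0038 for Mtor, 0.0284 for Rptor, 0.0326 for Tsc1 and 0.0208 for Flcn. Between control ASO and saline they were -0.0444 for Rheb, -0.0314 for C9orf72 and 0.0152 for Slc7a5. Quantile normalization gave 0.0037 for Tsc1 against the control ASO. Apart from that of Mtor against the control ASO, these signs are opposite to those reported, and the cause was not tested.

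With each library left out in turn, log2 fold changes against the control ASO ran from -0.0999 to 0.0101 for Flcn, -0.0518 to 0.0528 for Fnip1 and -0.177 to 0.0065 for Tfeb. The other members kept their sign there but moved: from -0.158 to -0.049 for Mtor, -0.177 to -0.0626 for Rptor and -0.143 to -0.0411 for Tsc2, each nearest to 0 without control ASO replicate 1 and farthest without control ASO replicate 2, and from -0.038 to -0.0028 for Tsc1, -0.17 to -0.117 for Mlst8, -0.217 to -0.101 for Fnip2, -0.0762 to -0.02 for Rragc and 0.0574 to 0.128 for Rheb. Against saline they ran from -0.151 to 0.0165 for Mtor, -0.153 to 0.0000 for Rptor and -0.103 to 0.0129 for Flcn, and against both control groups from -0.0985 to 0.0115 for Flcn. Between control ASO and saline they ran from -0.0468 to 0.121 for Mtor, -0.0321 to 0.121 for Rptor, -0.0656 to 0.0727 for Rheb, -0.0556 to 0.0526 for Flcn, -0.0073 to 0.0808 for Fnip2 and -0.034 to 0.0417 for C9orf72.

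The number of genes called against the control ASO, 10, was 19 without the trend and robust options, 16 without a filter and 18 with the length and GC trend removed, and ran from 7 (without C9orf72 ASO replicate 1 or 2, or control ASO replicate 3) to 27 (without C9orf72 ASO replicate 3). Against saline, 10 became 4 with only the groups compared in the fit and 24 with the trend removed, and ran from 4 (without C9orf72 ASO replicate 1 or 2, or saline replicate 2) to 54 (without C9orf72 ASO replicate 3), with 16 without control ASO replicate 3. Against both control groups, 25 became 39 with at least 1 RPKM required, and ran from 7 (without C9orf72 ASO replicate 1) to 139 (without C9orf72 ASO replicate 3), with 13 without control ASO replicate 1 and 9 without saline replicate 2. Between control ASO and saline, 1 became 9 without the trend and robust options, 5 without a filter and 3 with the trend removed, and ran from 0 (without any control ASO library) to 2 (without saline replicate 1). The C9orf72 level was 27.46% of that after the control ASO alone (exact permutation test, two-sided, p = 0.1, the smallest that 3 against 3 libraries allow). With a library left out it ran from 26.05% to 29.24%, with p = 0.0714 where a C9orf72 ASO library was left out, the smallest this exact permutation test can then give.

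No paired analysis was possible because the labels give no replicate numbers and do not say whether groups share animals or batches. The replicate numbers used here were given in the order of the deposited samples. No alternative of only the groups compared exists for both control groups, which use all libraries. Values under 0.5 RPKM limit low genes such as Eif4ebp1, while no member came near that floor.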
